A study of Mus musculus with 8 samples.

Results

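The genes described here are those of the NRF2 antioxidant and detoxification system, measured in cultured mouse keratinocytes with and without type I keratins. A list of 40 genes was used, covering NRF2 (gene Nfe2l2) and KEAP1, the enzymes of glutathione and thioredoxin, glutathione transferases, NADPH enzymes, ferritins and Abcc exporters. Of these, 34 had a probe on the array that named that gene alone, among 16593 genes with such a probe. Gsr, Prdx5, Prdx6, G6pdx, Pgd and Abcc4 had no probe named for them alone and were not analysed here. Ftl1, a ferritin light chain, and Abcc1, an exporter of glutathione conjugates, did not exceed background on a single one of the 8 arrays. Each had 1 probe, so low expression and a probe that fails to detect the transcript cannot be told apart. The other 32 genes passed the filter on dim probes and were tested.

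NRF2 is a transcription factor that KEAP1 holds in the cytoplasm and passes to the proteasome. Oxidants and electrophiles modify KEAP1, NRF2 then enters the nucleus, pairs with a small MAF protein and binds antioxidant response elements at genes of glutathione synthesis, conjugation, NADPH supply and export. In the epidermis the system protects keratinocytes against ultraviolet light, chemicals and reactive oxygen, and in mice without Keap1 the cornified layer of the oesophagus and forestomach thickens.

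The arrays compared KO cells (genotype type I keratin KO, strain C57Bl6) with wild-type cells of the same strain, 4 arrays of each. Both were keratinocytes of E18.5 embryo skin, grown in keratinocyte medium until confluent and then lysed. Arrays were numbered 1, 2, 3 and 1.1 in each genotype, and the labels call 1.1 a second replicate of 1. The SD of the log2 differences over probes was 0.205 for wild-type 1 and 1.1. KO 1.1 was as close to KO 3 (0.213) and not to KO 1 (0.640), against its label, so KO 3 with KO 1.1 and wild-type 1 with 1.1 were each averaged, leaving 3 KO and 3 wild-type replicates. The labels do not say that replicates came from separate embryos, so the p-values below measure the spread between these samples, which may be partly technical.

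Krt14, Krt16 and Krt17, type I keratins of basal and stressed keratinocytes, read at most 9.28 on the KO arrays and at least 7933 on the wild-type arrays. All 7 keratinocyte markers measured were above background on all 8 arrays, and summed to 21739 to 27029 on KO arrays and 25122 to 29198 on wild-type arrays. Trp63 and Dsg3 lay lower in every KO replicate (28.6% of the 7, against 10.9% of all genes), and the other 5 overlapped. The log2 difference (KO minus wild type) was negative for 6 of the 7, with -0.06 for Krt5, and positive for Itga6 (0.48). Melanocyte markers (6 genes) summed to 357 to 1614 on KO arrays and 916 to 3469 on wild-type arrays, and fibroblast markers (7 genes) to 197 to 466 on KO arrays and 55.6 to 1037 on wild-type arrays. Of the 5 leukocyte markers measured, Ptprc, Lyz2 and Cd207 were not above background on any array. The Y-linked gene Eif2s3y was bright in 2 of 3 KO and 1 of 3 wild-type replicates. The part of these cell types or of sex in the differences below was not tested gene by gene, beyond a fit with the Eif2s3y signal as a covariate. In a bulk culture, fewer cells of a type and less RNA per cell cannot be told apart.

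The regulatory sequences behind these genes are shown first, because the antioxidant response element is what the targets of NRF2 share. RefSeq promoter windows (assembly GRCm38.p6, 250 bases before to 50 bases after an annotated start) were found for 33 of the 40 genes. The 7 not matched were Hmox1, Gclc, Gsr, Prdx6, Gsta4, Abcc1 and Abcc3. They were searched on both strands for TGACNNNGC, the core of the element, which reads GCNNNGTCA when it lies on the other strand. The AP-1 motif TGACTCA can lie inside it. Of the 33 genes, 12 held a match (36.4%), against 14.0% of 27025 genes with such a window. The list was built around NRF2, so this share says nothing about the KO cells. The 2 sets were not matched for base composition or windows per gene. Of the 9 genes whose replicates did not overlap between genotypes (below), 7 had a window and 4 held a match. Of these 4, Gclm and Txnrd1 lay higher in KO cells, and Nfe2l2 and Mgst1 lay lower. A match is a string of letters, not a shown binding site. The windows of these 4 genes are printed 5' to 3' on the gene's own strand, with the match in capitals.
Gclm (chr3:122245307-122245606, plus strand, match 134 bases before the start): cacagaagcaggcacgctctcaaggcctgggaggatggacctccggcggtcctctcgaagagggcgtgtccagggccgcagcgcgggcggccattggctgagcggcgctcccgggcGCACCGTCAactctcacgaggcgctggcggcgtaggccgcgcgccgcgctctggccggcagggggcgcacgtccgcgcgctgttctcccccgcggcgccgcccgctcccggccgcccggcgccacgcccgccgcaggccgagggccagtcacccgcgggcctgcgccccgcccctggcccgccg
Txnrd1 (chr10:82858956-82859255, plus strand, match 92 bases before 1 of its 3 annotated starts): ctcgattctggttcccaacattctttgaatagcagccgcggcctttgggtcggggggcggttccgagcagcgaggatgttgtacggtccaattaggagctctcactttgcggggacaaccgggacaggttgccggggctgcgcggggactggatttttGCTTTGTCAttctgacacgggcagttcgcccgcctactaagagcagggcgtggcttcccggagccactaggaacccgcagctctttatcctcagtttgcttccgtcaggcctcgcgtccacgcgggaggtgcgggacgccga
Nfe2l2 (chr2:75704614-75704913, minus strand, match 240 bases before the start): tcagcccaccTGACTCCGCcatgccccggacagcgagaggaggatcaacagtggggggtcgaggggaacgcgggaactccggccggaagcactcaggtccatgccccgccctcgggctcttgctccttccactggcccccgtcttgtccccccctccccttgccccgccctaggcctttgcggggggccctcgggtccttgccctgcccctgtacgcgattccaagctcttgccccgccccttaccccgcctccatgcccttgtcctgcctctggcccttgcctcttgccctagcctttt
Mgst1 (chr6:138140277-138140576, plus strand, match 56 bases before 1 of its 2 annotated starts): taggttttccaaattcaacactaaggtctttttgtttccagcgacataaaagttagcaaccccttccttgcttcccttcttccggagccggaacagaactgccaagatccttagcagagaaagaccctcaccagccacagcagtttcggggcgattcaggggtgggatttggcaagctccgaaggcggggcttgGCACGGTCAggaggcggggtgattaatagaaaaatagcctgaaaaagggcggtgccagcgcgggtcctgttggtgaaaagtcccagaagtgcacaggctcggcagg
In Gclm, Txnrd1 and Mgst1 the match lay on the strand opposite to the gene, and in Nfe2l2 on the gene's strand. Ephx1, Gstm1 and Gsto1 held no such letters in their windows, nor did Nqo1 or Keap1. An element more than 250 bases before a start lies outside the windows and would not be seen.

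The comparison of KO with wild-type cells asked whether loss of type I keratins went with a different level of these genes. Differences went in both directions. Of the 32 tested, 15 lay higher in KO cells (46.9%), against 52.5% of all 9881 genes tested. Centring on ribosomal genes moved the median of all genes to 0.09, put 19 of the 32 higher, and made 61.4% of the calls over all genes higher ones, against 41.4% as reported. The median log2 difference was -0.05 over the 32 genes and 0.02 over all genes. Abcc3 rose and 0 of the 32 fell in the test, limma with Benjamini-Hochberg adjustment over all genes at an adjusted p under 0.05. That is 3.12% called higher, against 0.293% of all genes called higher, 0.415% lower and 0.708% in either direction. The Abcc3 probe passed the filter on dim probes through its KO arrays. On the wild-type side only 2 arrays exceeded background, fewer than the 3 the filter needs, so the share is no independent evidence. In 9 of the 32 genes (28.1%) the KO replicates lay wholly on 1 side of the wild-type replicates, against 22.5% of all genes. In 5 they lay above (15.6%, against 11.6% of all genes) and in 4 below (12.5%, against 10.9%). An unadjusted p under 0.05 was found for 9 as well, against 17.1% of all genes. Averaged over the 32 genes, the log2 level was 8.54, 8.84 and 9.06 for KO replicates 1, 2 and 3, against 8.58, 8.70 and 8.89 for the wild-type ones, with overlap.

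**Figure D1:**
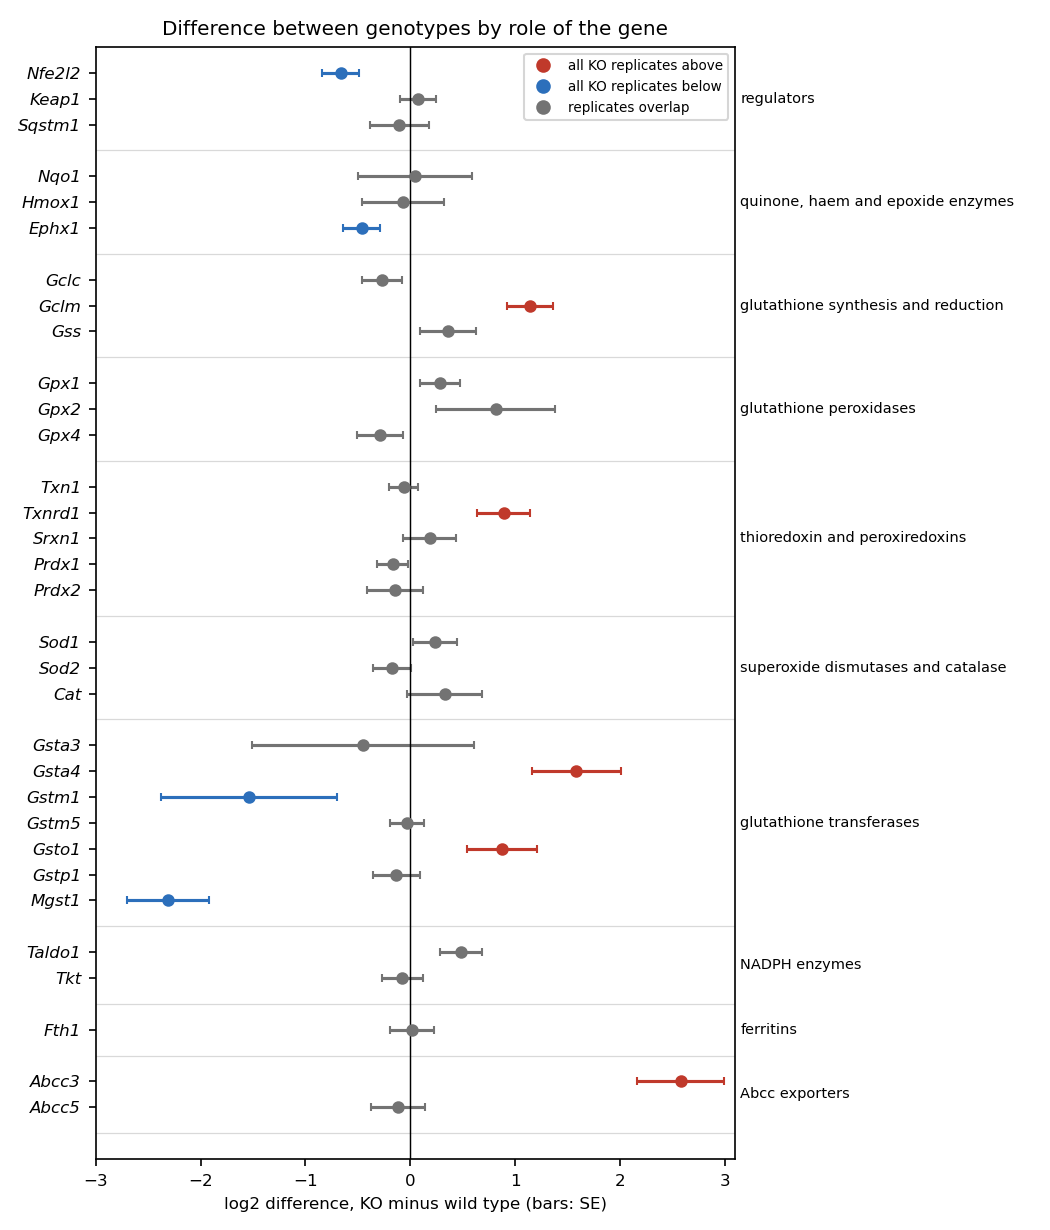
Log2 difference (KO minus wild type) of the 32 tested genes on the log2(intensity + 16) scale, in blocks by role, with SE bars (3 replicates per genotype). Red and blue points are genes whose KO replicates all lay above or below wild type, and they occur on both sides of 0, from -2.31 for Mgst1 to 2.58 for Abcc3.

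Of the regulators, Nfe2l2 lay lower in KO cells, and Keap1 and Sqstm1 overlapped. Nfe2l2 read 146, 199, 165 and 163 on KO arrays 1, 2, 3 and 1.1, against 306, 278, 241 and 322 on the matching wild-type arrays. Every KO array lay below every wild-type array. The log2 difference was -0.66 ± 0.17 (SE), with a mean of 170 ± 27.0 in KO and 278 ± 36.4 in wild-type cells (SD, n = 3 each), and it did not pass (limma adjusted p = 0.116). A dimmer Nfe2l2 probe, above background on 4 of 8 arrays, differed by -0.20. Fold changes here are on the log2(intensity + 16) scale, since the values include negative ones, and this understates the change of dim genes.

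Keap1 read 329, 319, 230 and 259 on KO arrays 1, 2, 3 and 1.1, against 308, 258, 268 and 325 on wild-type arrays. The genotypes overlapped, with a difference of 0.07 ± 0.17 (SE). Its 3 other bright probes gave -0.10, -0.13 and -0.21, so the sign of the small Keap1 difference depended on the probe. Sqstm1, the autophagy receptor p62 that competes with NRF2 for KEAP1, averaged 899 ± 183 in KO and 993 ± 320 in wild-type cells (SD, n = 3 each), with overlap. Centring on ribosomal genes left the sign of Nfe2l2, Keap1 and Sqstm1 as it was.

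The partners of NRF2 and its degradation were read from a list of 15 other genes, of which 14 were tested and 0 passed (limma; 2 higher and 2 lower had an unadjusted p under 0.05). That is 28.6% with an unadjusted p under 0.05, against 17.1% of all genes. Bach1, the haem-sensing repressor that occupies NRF2's sites, averaged 237 ± 68.0 in KO and 435 ± 97.1 in wild-type cells, a difference of -0.85 ± 0.25 (SE). Mafg, a small MAF partner that both NRF2 and BACH1 use to bind DNA, averaged 463 ± 108 in KO and 263 ± 27.7 in wild-type cells, a difference of 0.76 ± 0.20. The replicates of both genes did not overlap, and their adjusted p values were 0.146 and 0.121. The activator Nfe2l2 and the repressor Bach1 thus both lay lower in every KO replicate, and their shared partner Mafg lay higher. The other small MAF genes, Maff and Mafk, overlapped, with differences of 0.20 ± 0.23 and 0.37 ± 0.18. In this list 5 of the 14 had no overlap (35.7%, against 22.5% of all genes), 3 above and 2 below wild type. What these levels mean for NRF2 activity was not tested.

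Nqo1 and Hmox1, classic reporter genes of NRF2 activity, overlapped between the genotypes. Nqo1, the quinone reductase most used as an NRF2 readout, read 50.03, 248, 195 and 180 on KO arrays 1, 2, 3 and 1.1, against 60.9, 161, 190 and 84.2 on wild-type arrays. It was low in KO replicate 1 and wild-type replicate 1 alike, and highest in KO replicate 2. Its difference was 0.05 ± 0.55 (SE), the widest error among the genes of its group. The sign changed without KO replicate 2 (-0.35), KO replicate 3 (-0.16) or wild-type replicate 1 (-0.33), and with the Eif2s3y covariate (-0.32).

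Hmox1, haem oxygenase 1, read 40.4, 88.5, 134.5 and 133.2 on KO arrays 1, 2, 3 and 1.1, against 86.5, 121, 54.3 and 93.9 on wild-type arrays. The ranges overlapped and the difference was -0.07 ± 0.39 (SE), with the opposite sign (0.01) after ribosomal centring. Ephx1, microsomal epoxide hydrolase, read 797, 814, 928 and 883 on KO arrays, against 1035, 1419, 1105 and 962 on wild-type arrays. Each KO array lay below each wild-type array, with a difference of -0.46 ± 0.17 and no call (limma adjusted p = 0.237).

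**Figure D2:**
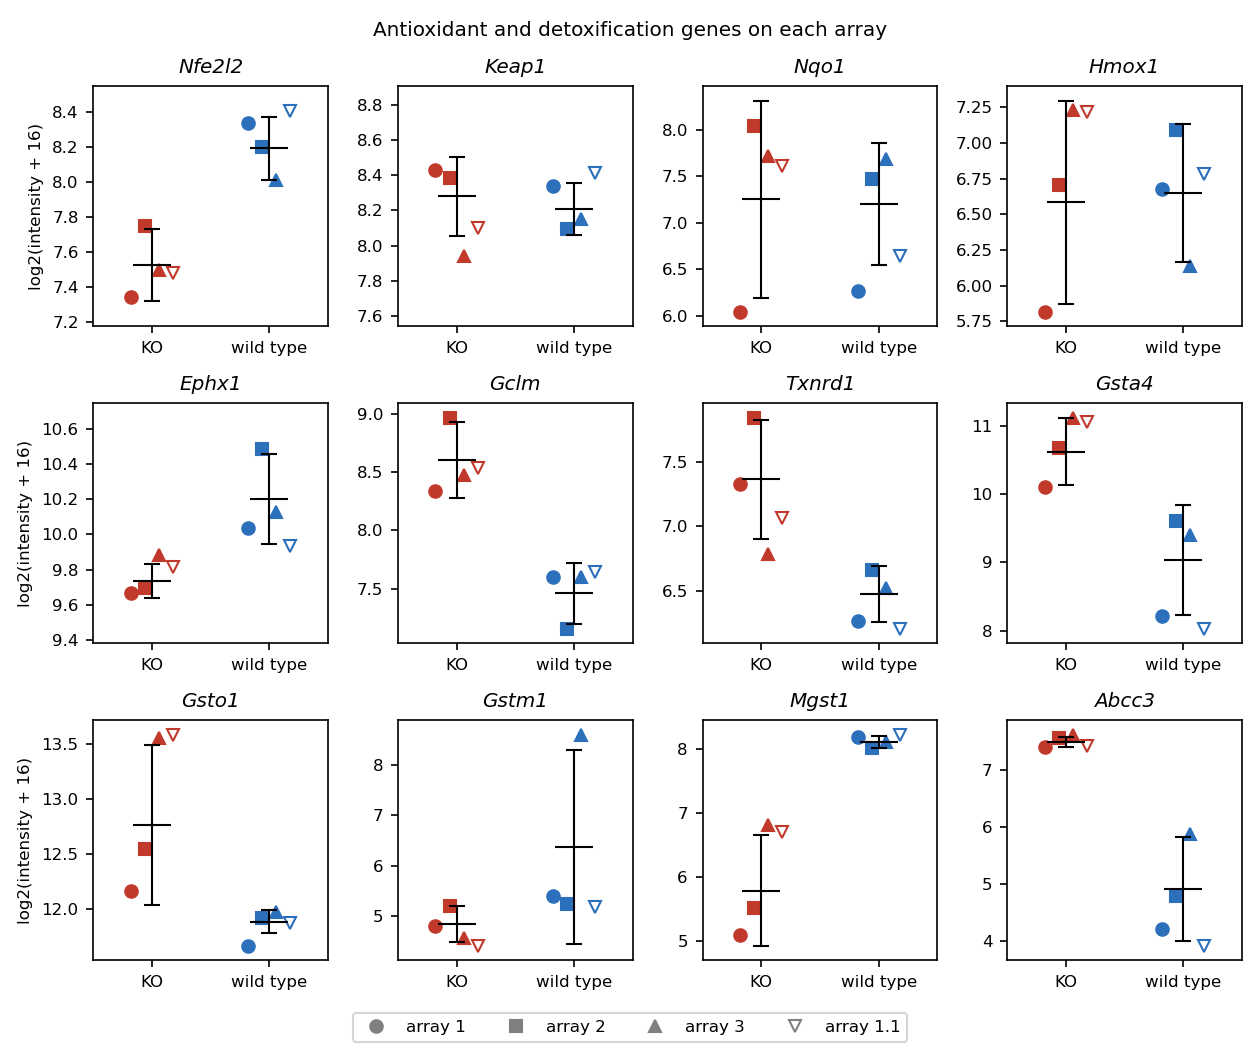
Log2(intensity + 16) of 12 genes on each array, KO left and wild type right, with symbols for array number and black bars for the mean ± SD of the 3 replicates. Nfe2l2, Ephx1 and Mgst1 lie below wild type on all KO arrays, Gclm, Txnrd1, Gsta4, Gsto1 and Abcc3 above, and Keap1, Nqo1 and Hmox1 overlap.

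Of the 3 genes of glutathione synthesis tested 0 passed (limma; 1 had an unadjusted p under 0.05), and Gclm lay higher in every KO replicate. Gclm, the modifier subunit of glutamate-cysteine ligase, read 308, 485, 340 and 356 on KO arrays 1, 2, 3 and 1.1, against 178, 127, 178 and 183 on wild-type arrays. The lowest KO array lay above the highest wild-type array. The difference was 1.15 ± 0.22 (SE), or 2.21-fold, from means of 380 ± 92.8 in KO and 162 ± 30.5 in wild-type cells (SD, n = 3 each). The adjusted p in limma was 0.0725, outside the threshold. It passed when arrays were averaged as labelled (0.0367) and with array weights (0.0204), within a range of 0.0204 to 0.230 over 19 alternatives.

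Gclc, the catalytic subunit of the same ligase, averaged 97.1 ± 19.7 in KO and 119 ± 22.2 in wild-type cells (SD, n = 3 each), with overlap and a difference of -0.27 ± 0.19 (SE). The difference between the responses of the subunits was not tested. Gss, glutathione synthetase, averaged 65.0 ± 26.8 in KO and 44.97 ± 7.19 in wild-type cells, and its 3 bright probes gave 0.36, 0.14 and -0.31. Among other glutathione and cystine genes, 12 were tested, 1 rose and 0 fell, against 0.293% of all genes called higher. The gene that rose was put on the list with its earlier result known, so the count is no independent evidence. It was Esd, S-formylglutathione hydrolase, at 935, 1495, 1566 and 1756 on KO arrays, against 305, 378, 389 and 381 on wild-type arrays (1.80 ± 0.23, limma adjusted p = 0.0264). All 4 bright Esd probes pointed the same way. Gpx7, a peroxidase of the endoplasmic reticulum, averaged 38.4 ± 17.7 in KO and 15.7 ± 4.27 in wild-type cells, with no overlap and an adjusted p of 0.224.

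Among the peroxidases, catalase and dismutases 0 of 6 passed (limma; 0 had an unadjusted p under 0.05), and the differences of Gpx2 and Cat came from a single KO replicate. Gpx2, a glutathione peroxidase of epithelia, read 52.0, 73.9, 380 and 316 on KO arrays 1, 2, 3 and 1.1, against 59.7, 61.0, 56.4 and 53.9 on wild-type arrays. It was high only in KO replicate 3, its difference was 0.82 ± 0.57 (SE), and without that replicate it was 0.08. Cat, catalase, read 262, 397, 843 and 712 on KO arrays, against 267, 378, 361 and 315 on wild-type arrays. Without KO replicate 3 its difference of 0.33 turned to -0.08. The arrays of KO replicate 3 also had the lowest sums of melanocyte markers (357 and 417), and the part of this in Gpx2 and Cat was not tested. Gpx1 averaged 3044 ± 501 in KO and 2488 ± 344 in wild-type cells, and Gpx4, the phospholipid peroxidase that restrains ferroptosis, 145 ± 30.0 in KO and 181 ± 45.6 in wild-type cells. The cytosolic dismutase Sod1 differed by 0.24 ± 0.21 and the mitochondrial Sod2 by -0.17 ± 0.18, both with overlap.

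In the thioredoxin branch Txnrd1, cytosolic thioredoxin reductase, lay higher in KO cells. It read 145, 214, 94.1 and 118 on KO arrays 1, 2, 3 and 1.1, against 60.9, 85.0, 76.1 and 57.8 on wild-type arrays. All KO arrays lay above all wild-type arrays, the nearest being 94.1 on KO 3 and 85.0 on wild-type 2. The difference was 0.89 ± 0.25 (SE) and did not pass (limma adjusted p = 0.139). Its substrate Txn1, thioredoxin, averaged 1248 ± 113 in KO and 1303 ± 53.6 in wild-type cells, with a difference of -0.06 ± 0.14. Srxn1, sulfiredoxin, which repairs over-oxidised peroxiredoxins, differed by 0.19 ± 0.25, Prdx1 by -0.17 ± 0.15 and Prdx2 by -0.15 ± 0.27, each with overlap. The sign depended on the probe for Txn1 (0.17 on a dim probe) and Srxn1 (-0.01 and -0.05 on its other probes).

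Of 11 other thioredoxin, peroxiredoxin and dismutase genes tested, 0 rose and 1 fell, against 0.415% of all genes called lower. The gene that fell was put on the list with its earlier result known, so the count is no independent evidence. Txnip, the protein that binds and inhibits thioredoxin, read 215, 77.1, 63.3 and 45.9 on KO arrays 1, 2, 3 and 1.1, against 516, 426, 362 and 561 on wild-type arrays. Its difference was -1.98 ± 0.42 (SE), with no overlap and an adjusted p of 0.0884 in limma, so it did not pass. The gene that did was Sesn1, a sestrin controlled by p53, at 42.2, 30.6, 52.4 and 44.4 on KO arrays, against 146, 110, 108 and 132 on wild-type arrays (-1.26 ± 0.18, adjusted p = 0.0390).

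**Figure D3:**
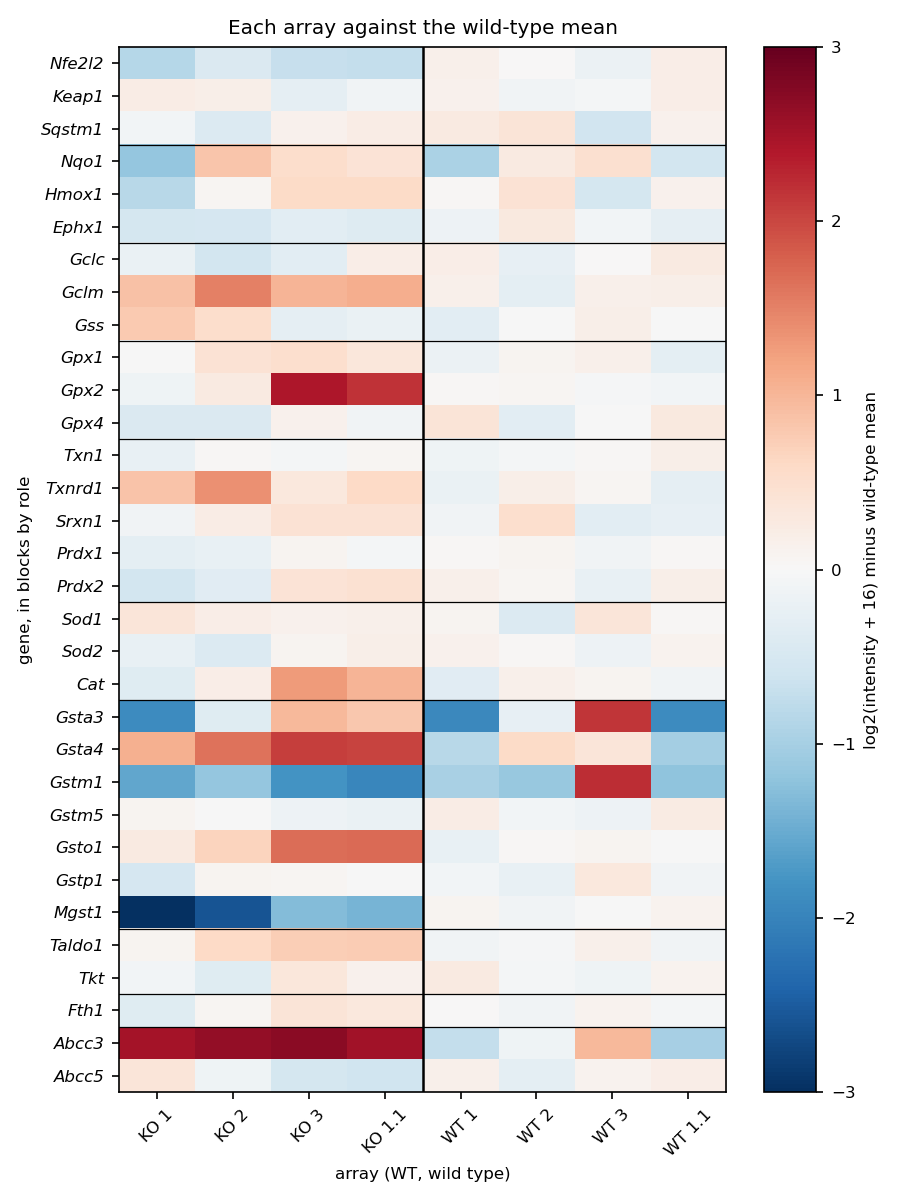
Log2(intensity + 16) of the 32 tested genes on each array, minus the mean of the 3 wild-type replicates, KO arrays left and wild-type arrays right, in blocks by role. Abcc3, Gclm and Mgst1 differ on all KO arrays, while Gpx2 and Cat are high only on KO arrays 3 and 1.1 and Gstm1 only on wild-type array 3.

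None of the glutathione transferases passed the test, and those without overlap of replicates lay on both sides of wild type. These enzymes join glutathione to electrophiles, and the membrane-bound Mgst enzymes act on lipid substrates. Of the 7 listed transferases, 2 lay higher in all KO replicates (Gsta4 and Gsto1), 2 lower (Mgst1 and Gstm1), and 3 overlapped (Gsta3, Gstm5 and Gstp1). Over the 20 transferases tested, the 13 from the list of other pathway genes included, 5 lay above and 5 below without overlap. That is 25.0% in each direction, against 11.6% above and 10.9% below over all genes. The lists were made with earlier results of these data known, so the count is no independent evidence. It includes the dim genes Gstt2 and Gstm1, whose single arrays overlapped, and Gsta1 and Gsta2, whose probes may not tell them apart. By limma 0 of the 20 were called, and 8 had an unadjusted p under 0.05.

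Mgst1, the microsomal transferase and peroxidase, read 18.3, 30.0, 95.8 and 87.9 on KO arrays 1, 2, 3 and 1.1, against 275, 242, 259 and 281 on wild-type arrays. Every KO array lay below every wild-type array, and KO replicate 3 was the nearest. The difference was -2.31 ± 0.39 (SE), or 0.201-fold, and did not pass by a small margin (limma adjusted p = 0.0547). It passed without KO replicate 3 (-2.79, adjusted p = 0.00345), within a range of 0.00345 to 0.221 over 19 alternatives. The dimmer Mgst1 probe differed by -1.19. Its relatives Mgst2 and Mgst3, named after their values were seen, averaged 162 ± 54.9 and 408 ± 105 in KO cells, against 609 ± 181 and 633 ± 83.5 in wild-type cells (SD, n = 3 each). Each of the 3 microsomal transferases lay lower in every KO replicate, as did 10.9% of all genes, and none was called. The adjusted p values in limma were 0.0523 for Mgst2 and 0.186 for Mgst3. Since Mgst2 and Mgst3 were named by their values, the 3 together are no independent evidence.

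Gsta4, the alpha-class transferase that clears the lipid peroxidation product 4-hydroxynonenal, lay on the opposite side. It read 1089, 1626, 2216 and 2125 on KO arrays 1, 2, 3 and 1.1, against 280, 765, 659 and 245 on wild-type arrays. There was no overlap, and the difference was 1.59 ± 0.42 (SE; limma adjusted p = 0.121). Gsto1, an omega-class enzyme with thioltransferase activity, read 4576, 5982, 12070 and 12294 on KO arrays, against 3236, 3864, 3994 and 3733 on wild-type arrays. Its difference of 0.88 ± 0.34 was carried largely by KO replicate 3, and was 0.47 without it.

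The other alpha-class genes varied more between replicates. Gsta1 and Gsta2 averaged 1052 ± 1056 and 444 ± 510 in KO cells, against 153 ± 116 and 56.1 ± 39.6 in wild-type cells (SD, n = 3 each). Their KO replicates lay above all wild-type replicates, by 2.47 ± 0.74 and 2.24 ± 0.77 (SE), with KO replicate 3 highest and adjusted p values of 0.154 and 0.204. The sequences of Gsta1 and Gsta2 are so alike that their probes may not tell them apart. Gsta3 read 89.1, 287, 741 and 667 on KO arrays 1, 2, 3 and 1.1, against 85.6, 313, 1701 and 88.9 on wild-type arrays. It overlapped fully, and its difference of -0.45 turned to 0.62 without wild-type replicate 3. The mu-class gene Gstm1 was dim at 12.1, 21.1, 7.91 and 5.44 on KO arrays and 26.5, 22.1, 370 and 20.3 on wild-type arrays. Its difference of -1.54 ± 0.84 rested on wild-type replicate 3 and was -0.43 without it. A second dim Gstm1 probe differed by 0.12 and read 5.91 on wild-type array 3, so the probes disagreed. Wild-type array 3 was also the one with the highest sum of fibroblast markers, 1037, whose part in Gsta3 and Gstm1 was not tested. On the arrays Gstm1 overlapped (KO 2 above wild-type 1.1), and the replicates were separated only by a narrow gap. Gstp1, the pi-class transferase abundant in many epithelia, averaged 623 ± 132.9 in KO and 682 ± 141 in wild-type cells, with overlap. Gstm5, another mu-class gene, averaged 169 ± 16.6 in KO and 174 ± 28.1 in wild-type cells, also with overlap. Gstm2, of the same class and named after its values were seen, averaged 341 ± 139 in KO and 651 ± 80.8 in wild-type cells. It lay lower on every KO array, by -0.98 ± 0.31 (SE; limma adjusted p = 0.173). The mu-class genes Gstm4 and Gstm6 overlapped.

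**Figure D4:**
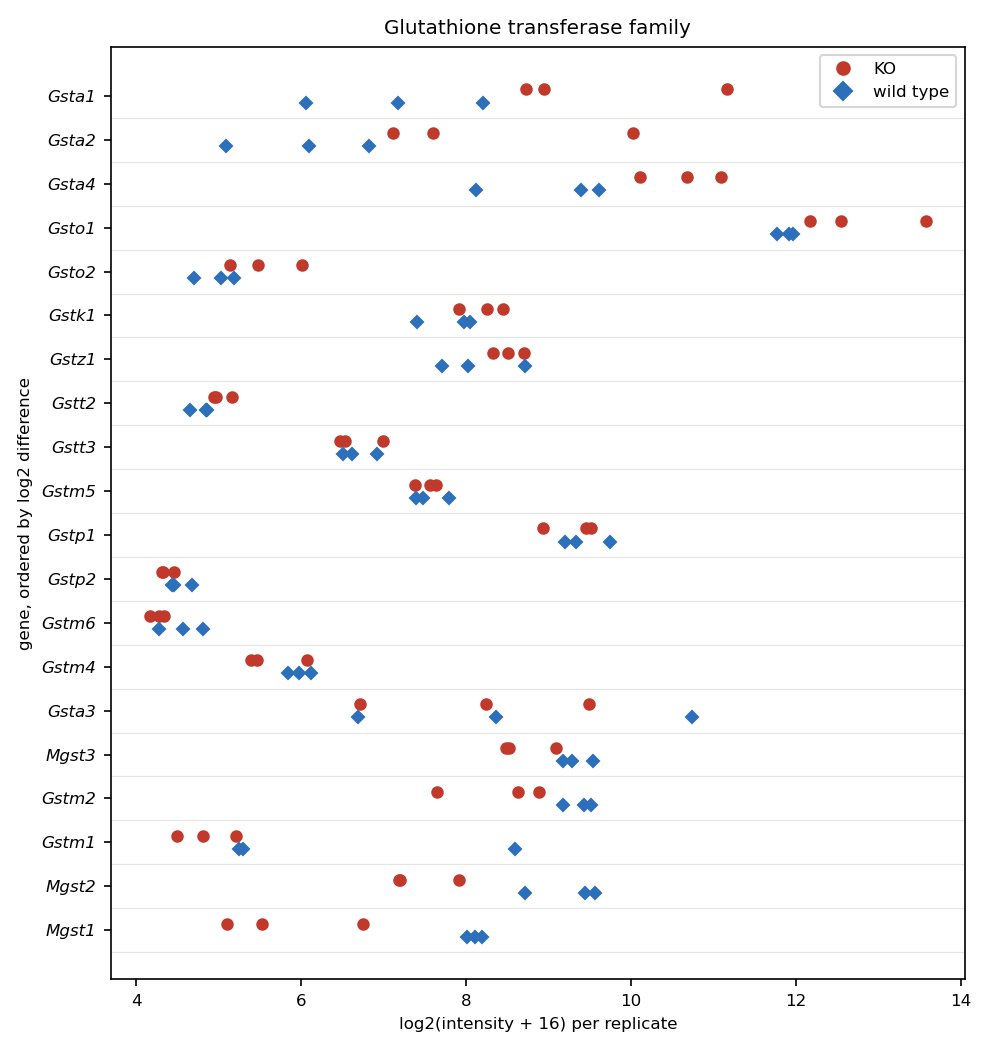
Log2(intensity + 16) of each KO (circles) and wild-type replicate (diamonds) for the 20 tested glutathione transferases, ordered by log2 difference. The alpha-class genes Gsta1, Gsta2 and Gsta4 lie at the top with KO above wild type, and Mgst1 and Mgst2 at the bottom with KO below.

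The enzymes that supply NADPH to these reactions were covered in part. Taldo1, transaldolase, averaged 1170 ± 267 in KO and 820 ± 78.2 in wild-type cells (SD, n = 3 each). Its arrays read 872, 1252, 1379 and 1394 in KO and 753, 793, 908 and 764 in wild-type cells, so KO replicate 1 lay below wild-type replicate 3. The difference was 0.48 ± 0.20 (SE; limma adjusted p = 0.284). Tkt, transketolase, differed by -0.07 ± 0.20, and its dimmer probes gave 0.29 and 0.26. Among other oxidoreductases and conjugating enzymes, 17 were tested and 0 passed (limma; 3 had an unadjusted p under 0.05, 17.6% against 17.1% of all genes). Idh1, the cytosolic NADPH-forming isocitrate dehydrogenase, averaged 290 ± 209 in KO and 813 ± 243 in wild-type cells, a difference of -1.65 ± 0.51. Ugt1a6a, a glucuronosyltransferase, averaged 17.5 ± 14.1 in KO and 58.3 ± 23.8 in wild-type cells, a difference of -1.17 ± 0.34. The adjusted p values were 0.163 for Idh1 and 0.146 for Ugt1a6a. The replicates of Idh1 had no overlap. Those of Ugt1a6a were separated only when KO 3 and KO 1.1 were averaged on the log2 scale, and its arrays overlapped, with 35.4 on KO 1.1 against 33.8 on wild-type 3. Ugt1a6a shares its downstream exons with the other Ugt1a genes, which its probe may also read.

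Of the ferritins only Fth1 was measured above background. Fth1, the ferritin heavy chain that stores iron in oxidised form, averaged 10538 ± 2600 in KO and 10218 ± 734 in wild-type cells, with a difference of 0.02 ± 0.21 (SE) and -0.02 on its other probe. Of 13 other haem and iron genes, all tested, 0 passed (limma; 1 had an unadjusted p under 0.05, 7.69% against 17.1% of all genes). That gene was Ireb2, the iron regulatory protein that blocks ferritin translation when iron is low, with an average of 220 ± 4.98 in KO and 152 ± 23.0 in wild-type cells, no overlap and an adjusted p of 0.156. Abcb6, a porphyrin transporter, averaged 41.5 ± 5.51 in KO and 54.1 ± 1.39 in wild-type cells.

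The exporters held the gene that rose. Abcc3, which pumps glucuronide and glutathione conjugates out of the cell, read 154, 173, 182 and 156 on KO arrays 1, 2, 3 and 1.1, against 2.52, 11.7, 43.5 and -0.79 on wild-type arrays. The KO arrays lay close together and far above the wild-type arrays, of which only 2 exceeded the background limit of 6.30. The probe thus passed the filter of at least 3 arrays through its KO arrays. It averaged 165 ± 10.3 in KO and 18.7 ± 22.1 in wild-type cells (SD, n = 3 each). The difference was 2.58 ± 0.41 (SE), or 5.98-fold on the offset scale, with an adjusted p of 0.0497 in limma, just inside the threshold. It did not pass without KO replicate 1 (0.138), KO replicate 2 (0.164), wild-type replicate 1 (0.130) or wild-type replicate 2 (0.135), and passed without KO replicate 3 (0.0475) or wild-type replicate 3 (0.0151). It also missed the threshold with the Eif2s3y covariate (2.59, 0.0755) and after median centring (2.58, 0.0507). Over 19 alternatives the log2 difference lay between 1.69 and 3.49.

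Abcc5, an exporter of cyclic nucleotides, read 53.5, 33.3, 21.8 and 19.8 on KO arrays 1, 2, 3 and 1.1, against 44.2, 28.3, 42.8 and 46.1 on wild-type arrays. It overlapped, with a difference of -0.11 ± 0.26 (SE). Of 6 other exporter genes 4 were tested and 0 passed (limma; 1 had an unadjusted p under 0.05, 25.0% against 17.1% of all genes). That 1 was Abcb1b, a P-glycoprotein, at 1095, 1204, 812 and 836 on KO arrays, against 556, 632, 593 and 559 on wild-type arrays. It showed no overlap, a difference of 0.78 ± 0.18 and an adjusted p of 0.0986.

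Over all 84 other pathway genes tested, 1 rose and 1 fell (limma), against 0.293% of all genes called higher and 0.415% lower. In 24 the replicates had no overlap (28.6%, against 22.5% of all genes), with 11 above wild type (13.1%, against 11.6%) and 13 below (15.5%, against 10.9%). The median log2 difference was -0.01.

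**Figure D5:**
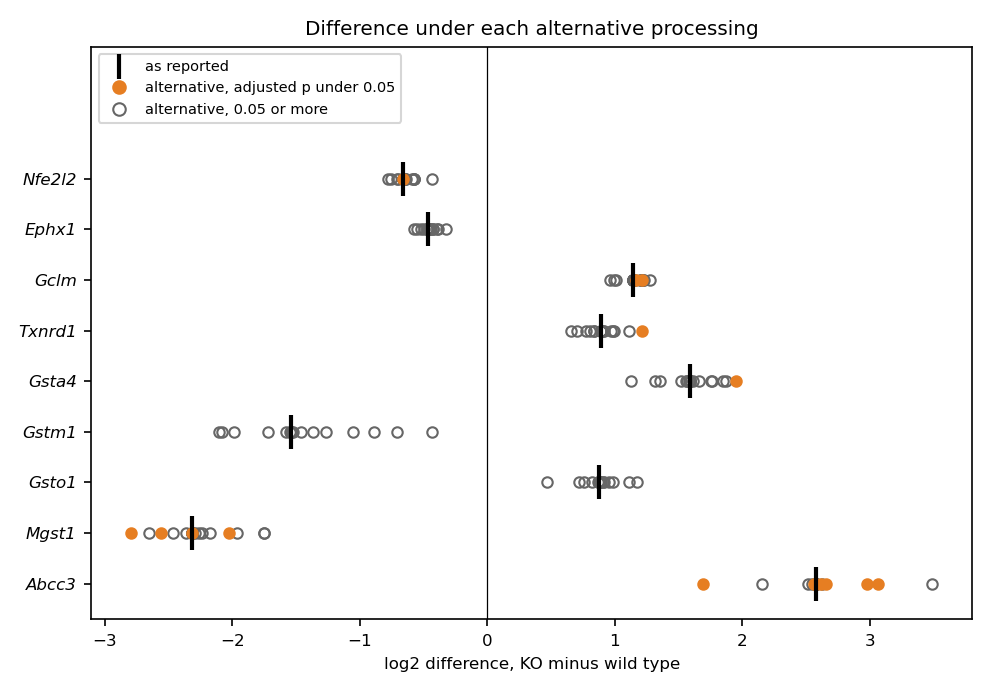
Log2 difference (KO minus wild type) of the 9 genes without overlap, as reported (black bar) and under each of 19 alternative settings (circles, filled where the adjusted p was under 0.05). Abcc3 passed in 8 of them, Mgst1 in 4 and Gclm in 2, and Gstm1 spans -2.10 to -0.43.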

How the data were processed

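Biotin-labelled cRNA from total RNA was read on Illumina arrays, per the labels' protocols. The deposited table gives 1 intensity on a linear scale for each of 25697 probes on 8 arrays, and the authors' processing of it was not given in the sources used here. Judged from the values, they are background-subtracted and share 1 distribution over arrays, as quantile normalization leaves them. A table of non-normalized signals was not used, because its 16 value columns match no sample label. Of the probes, 23978 had 1 gene symbol in the platform annotation, which can be old. The other 1719 had none or more than 1 and were left out. The array files name no genome build. Promoter windows came from RefSeq (GRCm38.p6).

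An offset of 16 was added before log2. The background limit was the intensity that 5% of the noise, taken as the negative values mirrored around 0, exceeded. Probes above it on at least 3 arrays were kept, and the brightest one of a gene was tested, for 9881 genes. Averages of a close pair were taken on the log2 scale for the test and of the intensities for the means and SDs. Genes were compared with limma 3.58.1 in R 4.3.3 (lmFit and eBayes, 3 against 3, no covariate), with Benjamini-Hochberg adjustment over all genes. The fit was also run on simulated data drawn from its own variance model, which checks the code and not the calls made here. Figures were drawn with matplotlib 3.10.9.

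The 40 genes, the other pathway lists and the pairing of arrays were chosen with earlier results of these data known. Every array value was given for Nfe2l2, Keap1, Nqo1, Hmox1, called genes and those of the 40 without overlap of replicates, and for some others after their values were seen. From each other pathway list the called genes were named, with the 2 largest differences among genes without overlap, and some others after their values were seen. Alternatives changed the pairing of arrays, offset, filter, probe rule, variance model, centring and replicates, with the Eif2s3y covariate added after the data were seen. Precision is limited by how few arrays there were.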

Additional observations from a re-analysis of the deposited data

How the results depend on the processing

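The reported fit called 70 genes, and among the antioxidant genes 1 higher and 0 lower. All genes called, listed genes called higher and listed genes called lower numbered 261, 2 and 1 with arrays averaged as labelled, 940, 4 and 2 with array weights, and 299, 2 and 1 at an adjusted p under 0.1. They numbered 21, 0 and 0 with the replicate block, 16, 0 and 0 with an offset of 4 (values below -3 set to -3), and 40, 0 and 0 with the Eif2s3y covariate. Without a filter they were 71, 1 and 1, the last being Mgst1. The higher count was 0 with the stricter filter, the mean of bright probes, a trended robust prior, or median centring, where the adjusted p of Abcc3 was 0.05004 to 0.0518. Leaving out 1 replicate gave 5 to 264 genes, 0 to 1 higher and 0 to 1 lower. Of the fewer calls there, part follows from fewer samples. No listed gene that was called, in the reported fit or in an alternative, had the opposite sign in any alternative. The replicate block changed the call of Abcc3 (adjusted p = 0.110). Same-numbered replicates did not deviate together (correlations 0.06, 0.02 and -0.35 for numbers 1, 2 and 3). Of the 3 KO replicates, 0 correlated best with the wild-type replicate of its own number. The KO numbers are themselves in doubt, as a KO array lay closer to another replicate than to the one its label names. With 3 replicates per genotype, these correlations cannot decide whether the numbers pair the samples.

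Genes that were not called changed sign as follows. With arrays averaged as labelled the log2 difference was -0.0092 for Keap1, 0.17 for Hmox1, 0.014 for Prdx2 and 0.026 for Gsta3. With the mean of bright probes it was -0.093 for Keap1, 0.055 for Txn1, 0.16 for Tkt and -0.0036 for Fth1. Ribosomal centring gave 0.0059 for Hmox1, 0.011 for Txn1, 0.043 for Gstm5 and 0.0012 for Tkt, and array weights gave 0.27 for Gsta3. The Eif2s3y covariate gave -0.32 for Nqo1, -0.012 for Srxn1, 0.015 for Gstm5, -0.057 for Fth1 and 0.079 for Abcc5. With 1 replicate left out, the range was -0.0037 to 0.20 for Keap1, -0.39 to 0.087 for Sqstm1, -0.35 to 0.65 for Nqo1, -0.39 to 0.31 for Hmox1 and -0.11 to 0.013 for Txn1. It was -0.44 to 0.053 for Prdx2, -0.077 to 0.68 for Cat, -1.40 to 0.62 for Gsta3, -0.11 to 0.085 for Gstm5, -0.24 to 0.055 for Gstp1, -0.23 to 0.076 for Tkt, -0.15 to 0.21 for Fth1 and -0.35 to 0.11 for Abcc5. The causes were not tested.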

Other observations

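Several dim second probes followed patterns that cut across genotype. Prdx2, a cytosolic peroxiredoxin, had 1 probe at 18.7, 22.3, 147 and 135 on KO arrays 1, 2, 3 and 1.1, against 219, 126, 19.8 and 242 on wild-type arrays. Another Prdx2 probe read 8.12, 6.93, 53.7 and 55.3 on KO arrays, against 60.6, 32.6, 9.67 and 72.7 on wild-type arrays. On both, KO replicates 1 and 2 and wild-type replicate 3 were low and the others high. The brightest Prdx2 probe read 1289, 1500, 2533 and 2600 on KO arrays, against 2095, 1974, 1620 and 2129 on wild-type arrays, lowest in the same 3 replicates with a much smaller span. The dimmer Prdx1 probe read 6.82, 15.4, 30.1 and 34.0 on KO arrays, against 37.0, 51.1, 21.1 and 39.3 on wild-type arrays. The bright Prdx1 probe read 5948, 6227, 7748 and 6997 on KO arrays, against 7459, 7710, 6733 and 7459 on wild-type arrays. Both Prdx1 probes were lowest in the same 3 replicates, the bright one with a much smaller span. The dimmer Mgst1 probe was lowest among wild-type arrays on array 3, at 11.8 against 33.9 to 41.7 on the others, where the bright Mgst1 probe read 259 against 242 to 281. The cause of these patterns was not tested.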
